A study of Homo sapiens with 10 samples.

Results

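This account follows 39 genes that are widely reported as targets of the miR-17 family of microRNAs, outside the better known targets of that family in cell cycle, autophagy and TGF-beta signalling. They were chosen by symbol as reported targets, with no measured value in the rule but with earlier results of these data known, and all 39 were present among the 19215 gene symbols in the counts. RNA was sequenced from 4 groups of stable human liver tumour lines: HepG2 with a decoy against miR-17 (HepG2 miR-17 TuD), HepG2 with a negative control decoy (HepG2 NC TuD), and the same pair in SK-Hep1 (SK-Hep1 miR-17 TuD and SK-Hep1 NC TuD). There were 3 libraries in each HepG2 group and 2 in each SK-Hep1 group. A tough decoy (TuD) is an RNA with exposed binding sites for a microRNA that sequesters it. All 4 groups, controls included, were exposed for 48 h to virus (multiplicity of infection 5, polybrene 10 µg/mL), kept under puromycin (1 µg/mL) for a further 2 weeks, and grown in medium with 10% serum. Resistant colonies were then pooled, so each arm of each line is 1 stable line. An effect of the decoy and a difference that arose while the paired stable lines were made cannot be told apart. The labels do not say that replicates were separate cultures, so p-values measure the spread between these libraries, which may be technical. The microRNAs themselves were not measured in these libraries.

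A microRNA guides Argonaute to messenger RNAs by pairing of its seed, the bases from position 2 to 8 at its 5′ end, with a match in the target's 3′ untranslated region (3′UTR). Bound messages are translated less and are degraded faster, so that sequestering a microRNA is known to raise its targets by a modest amount. The miR-17 family is encoded in several clusters, is often abundant in liver tumours and other cancers, and acts on many genes of growth control, vesicle traffic and signalling.

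The 6 family members in the RefSeq table (GRCh38.p14) are shown because their shared seed defines the sites that were searched. Each is written 5′ to 3′ with the seed in capitals.
miR-17-5p: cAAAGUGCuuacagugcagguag
miR-20a-5p: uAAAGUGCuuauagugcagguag
miR-20b-5p: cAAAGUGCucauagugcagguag
miR-93-5p: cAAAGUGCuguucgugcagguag
miR-106a-5p: aAAAGUGCuuacagugcagguag
miR-106b-5p: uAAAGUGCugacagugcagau
All 6 carry 1 and the same seed, AAAGUGC, and they differ mainly in the middle of the molecule.

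A match to the whole seed followed by an A is an 8mer (GCACTTTA), a match to the whole seed without that A is a 7mer-m8 (GCACTTT), and a match to the seed's first 6 bases followed by an A is a 7mer-A1 (CACTTTA). They were sought on the sense strand of the longest annotated 3′UTR in GENCODE 29 (GRCh38), with an 8mer counted once, as an 8mer. Shown are the 8mers of the 4 genes that were higher with the decoy in both lines and of 2 genes with large changes in HepG2. The capitals mark the match to the seed and the A after it, the positions are those of the match, and the lower-case bases are the transcript around it.
MINK1, chr17:4897781-4897788, plus strand: tcttcattttctgaaaGCACTTTA
PLEKHA3, chr2:178503985-178503992, plus strand: tttcccttaggactctGCACTTTA
PLEKHA3, chr2:178504982-178504989, plus strand: aggttttggataaggaGCACTTTA
OSTM1, chr6:108043062-108043069, minus strand: gatataaagctaataaGCACTTTA
TMEM127, chr2:96253286-96253293, minus strand: ctccggggagttctgtGCACTTTA
NAGK, chr2:71078622-71078629, plus strand: atagaagaaaataaatGCACTTTA
FGD4, chr12:32640615-32640622, plus strand: tcttacacatctgctaGCACTTTA
FGD4, chr12:32645987-32645994, plus strand: aacattgtaaaattaaGCACTTTA
The match is shared because it was the motif searched for, and upstream of it the bases differ from gene to gene.

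Of the 39 genes, 38 held an 8mer or a 7mer-m8, which is 97.4%, against 25.02% of the 13240 tested genes with an annotated 3′UTR. An 8mer was found in 21 of them (53.8%), against 5.32% of tested genes, and 20 (51.3%) held at least 2 sites, against 7.43%. Their 3′UTRs were also longer, with a median of 2660 bases against 1336 bases, and per kilobase they held 0.514 sites against 0.181. Genes enter such reports and predictions partly through these sites, so the shares support nothing about the decoy. The exception was MAPK14, in whose longest 3′UTR none of the 3 motifs was found.

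Each library held 12884225 to 15076431 gene counts. HepG2 libraries carried the hepatocyte markers that its origin implies, with summed levels of 48205 to 50653 CPM (counts scaled to a common library total) over 10 genes in HepG2 miR-17 TuD and 55314 to 57507 CPM in HepG2 NC TuD; 7 of the 10 had the lower mean with the miR-17 decoy. In SK-Hep1 the same sum was 74.4 to 79.8 CPM with the miR-17 decoy and 84.7 to 105.4 CPM with the control decoy. SK-Hep1 instead carried 14198 to 14201 CPM of 9 mesenchymal and endothelial markers with the miR-17 decoy and 13460 to 13599 CPM with the control decoy, nearly all of it from VIM, SPARC, CAV1 and AXL, while the endothelial genes CDH5, PECAM1 and VWF averaged 0.0723 CPM or less in both groups. The labels call both lines hepatocellular carcinoma, and in SK-Hep1 most of the hepatocyte sum was SERPINA1, at means of 68.7 CPM with the miR-17 decoy and 64.8 CPM with the control decoy. APOB averaged 5.01 CPM with the miR-17 decoy and 13.9 CPM with the control decoy in SK-Hep1, and each of the other 8 hepatocyte genes 5.78 CPM or less. In HepG2 NC TuD APOB averaged 22483 CPM. Whether such low levels in the SK-Hep1 libraries came from SK-Hep1 cells was not tested. Among the blood cell markers PTPRC, CD3E and HBB were at 0 in all HepG2 libraries. Of the 39 genes, 38 passed the filter on low counts and were tested among 13349 genes. ENPP5, of the family of ecto-nucleotide pyrophosphatases, did not pass, with a single count over all libraries, in SK-Hep1 miR-17 TuD replicate 2. EPHA4, an ephrin receptor, had no count in any HepG2 library and was tested through SK-Hep1 only, so 37 genes had a response in HepG2.

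The first comparison asked which of these genes differed in HepG2 between the miR-17 decoy and the control decoy. In HepG2, 24 of the 38 tested genes (63.2%) were higher in the miR-17 TuD libraries at a Benjamini-Hochberg adjusted p below 0.05 over all genes (edgeR quasi-likelihood test, n = 3 per arm), and none was lower. Over all tested genes 10.7% were called higher and 8.58% lower, 19.3% together. At an unadjusted p below 0.05 edgeR had 26 of these genes higher and 0 lower, against 16% and 14.2% of all genes. At an adjusted p below 0.05 DESeq2 and limma also called 0 lower. The changes were modest. The median over the 38 genes, with EPHA4 at 0, was a log2 fold change of 0.21, or 1.16-fold, beside 0 over all genes, and the called genes lay between 0.12 and 0.90, or 1.09- and 1.87-fold. Of the 37 genes with counts, 33 had a positive value and 4 a negative one, of which LAPTM4A turned to 0.00024 with DESeq2's size factors. The 3 miR-17 TuD libraries lay wholly above the 3 NC TuD libraries for 27 genes, against 16.1% of all genes, and wholly below for 0, against 14.9%. In the same libraries the summed hepatocyte markers were lower with the decoy, by the values above, and the part of that shift in these results was not tested. A change in every cell and a change in the share of cells that express a gene cannot be told apart in bulk RNA.

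**Figure D1:**
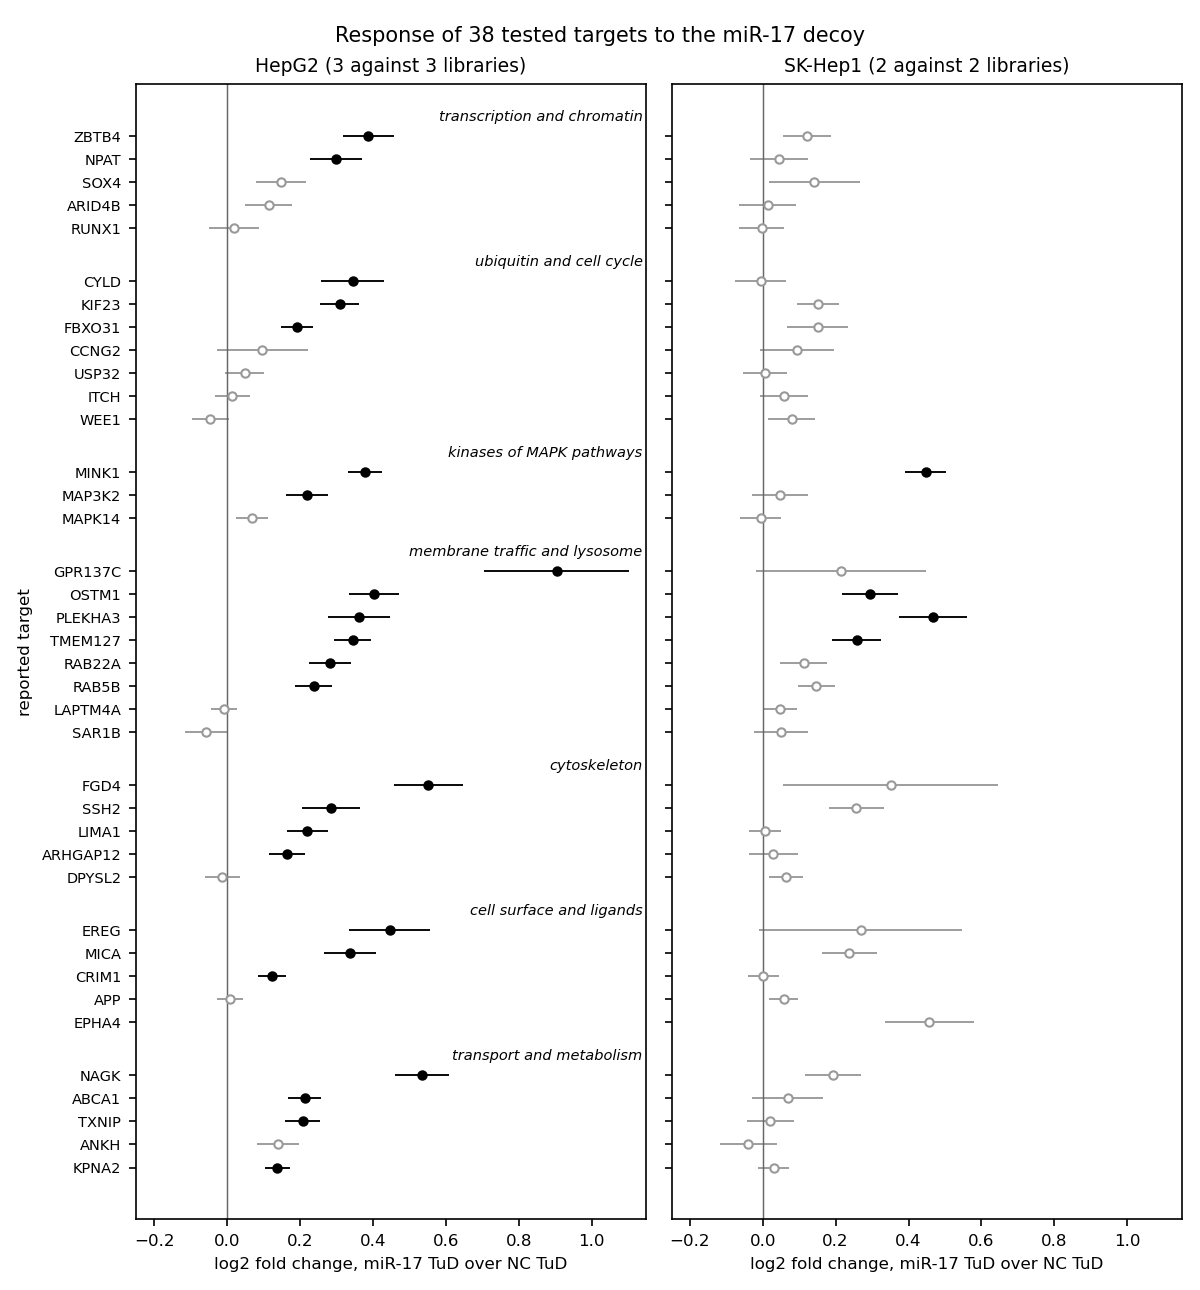
Log2 fold change, miR-17 TuD over NC TuD, of the tested genes in HepG2 (left, n = 3 per arm) and SK-Hep1 (right, n = 2 per arm), grouped by what the genes do. Bars are standard errors derived from the test statistic. Filled points are genes with an adjusted p below 0.05, and EPHA4 has no HepG2 point because it had no count there. In HepG2, 24 points are filled, all to the right of 0, and in SK-Hep1, 4 are.

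In SK-Hep1, 4 of the 38 genes (10.5%) were higher with the decoy and none was lower (edgeR, n = 2 per arm), while 0.667% of all genes were called higher and 0.202% lower, 0.869% together. Those 4 were MINK1, PLEKHA3, OSTM1 and TMEM127, and each was also higher in HepG2. Over all tested genes 0.352% were higher in both lines. The SK-Hep1 count of 4 became 9 with each line fitted alone, where calls over all genes came to 274 instead of 116. It became 2 with the replicate block. Leaving out 1 SK-Hep1 library leaves 1 library in that arm. In those fits only MINK1 of the 4 always kept its call, and genes outside the 4 entered. Without SK-Hep1 NC TuD replicate 1 the log2 fold change was 0.34 for PLEKHA3, 0.32 for OSTM1 and 0.29 for TMEM127. For SSH2 and EPHA4 it was 0.39 and 0.63 there. At an unadjusted p below 0.05 (edgeR), 10 of the genes were higher and 0 lower in SK-Hep1, against 4.08% and 4.28% of all genes. At an adjusted p below 0.05 DESeq2 and limma called 0 lower. The median log2 fold change was 0.07, or 1.05-fold, beside −0.01 over all genes, with 34 values above 0 and 4 below; of these 4, RUNX1, CYLD and MAPK14 turned to between 0.0098 and 0.0122 with DESeq2's size factors. In 23 genes both miR-17 TuD libraries lay above both NC TuD libraries, against 18.4% of all genes, and in 1 gene, ANKH, both lay below, against 21.9%.

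The next comparison set the responses of the lines against each other. No gene of the 38 had a response that differed between SK-Hep1 and HepG2 at an adjusted p below 0.05 by edgeR, and DESeq2 and limma called 0 as well, while edgeR called 3.75% of all genes (1.24% higher in SK-Hep1, 2.51% lower). EPHA4, without a HepG2 count, could not be called here, so the comparison covers 37 genes. At an unadjusted p below 0.05, 8 of the 37 genes with counts in both lines differed, against 15.2% of all genes, and all 8 had the smaller value in SK-Hep1. The smallest adjusted p belonged to NAGK, at 0.0541, with a difference in log2 fold change of −0.34 ± 0.11 (SK-Hep1 response minus HepG2 response, ± SE), and CYLD followed at 0.0612 with −0.35 ± 0.11. So the 20 genes that passed in HepG2 and missed in SK-Hep1 are not shown to respond differently there. Of the 24 genes called in HepG2, 23 had a positive value in SK-Hep1, and for 15 of them both SK-Hep1 miR-17 TuD libraries lay above both NC TuD libraries. Of all 1425 genes called higher in HepG2, 57.3% had a positive value in SK-Hep1 and 29.3% had libraries separated in that way. Leaving out HepG2 miR-17 TuD replicate 2 gave 1 call, LIMA1, with a difference of −0.27 (adjusted p = 0.0204), and leaving out HepG2 miR-17 TuD replicate 1 or 3 or HepG2 NC TuD replicate 2 gave NAGK (adjusted p = 0.0443, 0.0368 and 0.0422). Without HepG2 NC TuD replicate 3 the call was ZBTB4 (difference −0.36, adjusted p = 0.0218).

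The genes of membrane traffic and the lysosome held 3 of the 4 genes called in both lines. In HepG2, 6 of the 8 were higher, with a median log2 fold change of 0.31, and in SK-Hep1 3 were higher, with a median of 0.18. PLEKHA3, which binds the phosphoinositide PI4P at the Golgi and shapes traffic from it, had 21.8, 23.2 and 21.6 CPM in HepG2 miR-17 TuD, against 17, 17.6 and 17.3 CPM in HepG2 NC TuD. In SK-Hep1 it had 31.1 and 29.9 CPM with the miR-17 decoy, against 19.9 and 24.2 CPM with the control decoy. The arms did not overlap in either line. It rose by 0.36 ± 0.08 in HepG2 (adjusted p = 0.00106) and by 0.47 ± 0.09 in SK-Hep1 (adjusted p = 0.00187; log2 fold change ± SE, edgeR). Its 3′UTR is the longest of the set, at 12575 bases, and its 8mers start at bases 98 and 1095 of it.

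OSTM1 is the partner subunit that the lysosomal chloride transporter needs. Its level was 39.1, 41.3 and 43.3 CPM in HepG2 miR-17 TuD, against 30.3, 33.9 and 29.3 CPM in HepG2 NC TuD. SK-Hep1 had 53.3 and 48.5 CPM with the miR-17 decoy, against 42.4 and 40.7 CPM with the control decoy. The arms were again separate in both lines, with a rise of 0.40 ± 0.07 in HepG2 (adjusted p = 7.04e-06) and of 0.29 ± 0.08 in SK-Hep1 (adjusted p = 0.0434; edgeR). TMEM127, an endosomal and lysosomal membrane protein known as a tumour suppressor, had 89.3, 87.3 and 88.1 CPM in HepG2 miR-17 TuD, against 71.3, 68.0 and 69.0 CPM in HepG2 NC TuD. In SK-Hep1 it had 56.7 and 58.0 CPM with the miR-17 decoy, against 49.0 and 47.0 CPM with the control decoy. Its libraries were tightly grouped in each arm, and it rose by 0.34 ± 0.05 in HepG2 (adjusted p = 3.31e-07) and by 0.26 ± 0.07 in SK-Hep1 (adjusted p = 0.0417; edgeR). In SK-Hep1 the calls of OSTM1 and TMEM127 were lost when any 1 of the 4 libraries was left out, with adjusted p of 0.0540 to 0.659 for OSTM1 and 0.153 to 0.413 for TMEM127. PLEKHA3 was lost without SK-Hep1 NC TuD replicate 1 (adjusted p = 0.274) or SK-Hep1 miR-17 TuD replicate 1 (adjusted p = 0.0663), while MINK1 passed in every SK-Hep1 fit run.

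The endosomal GTPases of this group moved in HepG2. RAB22A, which sorts cargo for recycling, had 52.3, 53.6 and 54.5 CPM in HepG2 miR-17 TuD, against 43.4, 44.1 and 44.3 CPM in HepG2 NC TuD. In SK-Hep1 its levels were 64.6 and 65.1 CPM with the miR-17 decoy, against 60.2 and 59.8 CPM with the control decoy. RAB5B, of the early endosome, had 74.8, 75.6 and 76.8 CPM in HepG2 miR-17 TuD, against 64.6, 64.9 and 63.2 CPM in HepG2 NC TuD. Neither gene's arms overlapped in either line, and both rose in HepG2, by 0.28 ± 0.06 for RAB22A (adjusted p = 0.000156) and by 0.24 ± 0.05 for RAB5B (adjusted p = 0.000255; edgeR). In SK-Hep1 RAB5B had 175 and 183 CPM with the miR-17 decoy, against 164 and 159 CPM with the control decoy, a value of 0.15 ± 0.05 that did not pass (adjusted p = 0.228; edgeR). GPR137C, a membrane protein of the lysosomal GPR137 family, had the largest HepG2 change of the 38 genes, at 0.90 ± 0.20 (adjusted p = 0.000462; edgeR), at a low level of 4.16 ± 0.709 CPM in HepG2 miR-17 TuD, against 2.23 ± 0.216 CPM in HepG2 NC TuD (SD, n = 3 each). The remaining genes stayed near 0 in HepG2, with −0.01 for LAPTM4A, a lysosomal membrane protein, and −0.06 for SAR1B, the GTPase that starts the COPII coat. SAR1B and LAPTM4A held 7mer-m8 sites only, and so did RAB22A, which rose in HepG2.

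**Figure D2:**
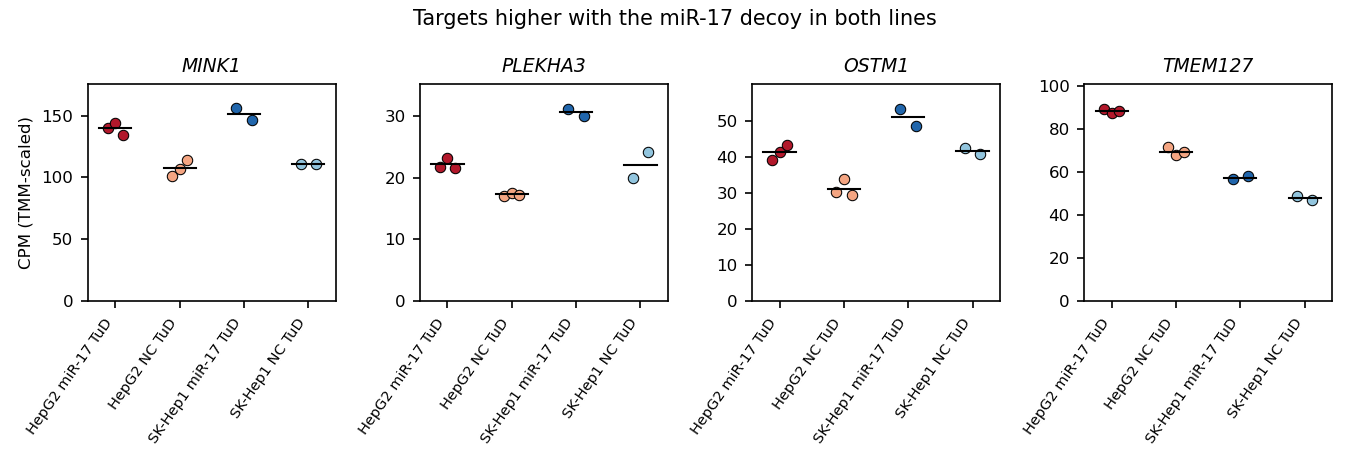
Level of MINK1, PLEKHA3, OSTM1 and TMEM127 in each library (points), in CPM with TMM scaling on axes that start at 0, with group means as lines. In each panel the miR-17 TuD libraries stand left of the NC TuD libraries of the same line, and in both lines every miR-17 TuD point lies above every NC TuD point.

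Among 3 kinases of MAP kinase pathways, MINK1 had the smallest adjusted p of all 38 genes in each line. MINK1 is a kinase of the STE20 family that acts upstream of stress-activated MAP kinases. It had 140, 144 and 135 CPM in HepG2 miR-17 TuD, against 102, 107 and 114 CPM in HepG2 NC TuD. In SK-Hep1 it had 156 and 146 CPM with the miR-17 decoy, against 111 and 111 CPM with the control decoy. The arms were far apart in both lines, and MINK1 rose by 0.38 ± 0.05 in HepG2 (adjusted p = 5.15e-09) and by 0.45 ± 0.06 in SK-Hep1 (adjusted p = 1.59e-07; edgeR). Its control level was alike in the lines, with a log2 fold change of 0.04 between SK-Hep1 NC TuD and HepG2 NC TuD that was not called. Of its exon bases 3.68% overlap CHRNE, and since the kit does not record the strand, reads there cannot be assigned to either gene. MAP3K2, a kinase at the top of the ERK5 and JNK cascades, rose by 0.22 ± 0.06 in HepG2 (adjusted p = 0.00433), and MAPK14, the p38 alpha kinase and the gene without a site, had 0.07 ± 0.04 (adjusted p = 0.288; edgeR). MAP3K2 missed the threshold with limma (adjusted p = 0.0667), without HepG2 miR-17 TuD replicate 3 (0.0674) and without HepG2 NC TuD replicate 1 (0.0578). In SK-Hep1 MAP3K2 had 0.05 and MAPK14 −0.01.

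The cytoskeleton group had 4 of 5 genes higher in HepG2, with a median of 0.22, and none in SK-Hep1, with a median of 0.06. FGD4, an exchange factor that activates CDC42, had 20.9, 18.6 and 19.6 CPM in HepG2 miR-17 TuD, against 12.6, 14.4 and 13.3 CPM in HepG2 NC TuD. Its arms did not overlap, and the rise of 0.55 ± 0.09 (adjusted p = 8.4e-06; edgeR) was the second largest of the set in HepG2. In SK-Hep1 FGD4 was low, with 1.79 and 2.10 CPM with the miR-17 decoy, against 1.76 and 1.31 CPM with the control decoy, and its 0.35 ± 0.29 did not pass (adjusted p = 0.818; edgeR). SSH2, a phosphatase that activates the actin-severing protein cofilin, rose by 0.29 ± 0.08 in HepG2, and LIMA1, an actin-bundling LIM protein, by 0.22 ± 0.06. ARHGAP12 rose by 0.16 ± 0.05, and DPYSL2, which binds tubulin, had −0.01 ± 0.05. SSH2 had 0.26 ± 0.07 in SK-Hep1 as well, with separate arms and an adjusted p of 0.093 by edgeR. Without 1 SK-Hep1 library its value ran from 0.13 to 0.39. LIMA1 had 586 ± 7.85 CPM in SK-Hep1 miR-17 TuD, against 584 ± 19.3 CPM in SK-Hep1 NC TuD (SD, n = 2 each), a log2 fold change of 0.01. The HepG2 call of ARHGAP12 was lost with limma (adjusted p = 0.0643), with the replicate block (0.0571), without HepG2 miR-17 TuD replicate 1 (0.0861) and without HepG2 NC TuD replicate 1 (0.121), and that of LIMA1 without HepG2 miR-17 TuD replicate 1 (0.0622).

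Of the genes of the ubiquitin system and cell cycle, 3 of 7 were higher in HepG2 and none in SK-Hep1, with medians of 0.10 and 0.08. KIF23, the kinesin of the complex that bundles the central spindle before cytokinesis, had 80.7, 77.0 and 84.9 CPM in HepG2 miR-17 TuD, against 65.4, 69.7 and 60.7 CPM in HepG2 NC TuD. SK-Hep1 had 145 and 147 CPM with the miR-17 decoy, against 126 and 137 CPM with the control decoy. The arms were separate in both lines, with a rise of 0.31 ± 0.05 in HepG2 (adjusted p = 1.17e-05) and a value of 0.15 ± 0.06 in SK-Hep1 (adjusted p = 0.319; edgeR). CYLD, a deubiquitinase that restrains NF-kappaB signalling, rose by 0.35 ± 0.09 in HepG2 and had −0.00 ± 0.07 in SK-Hep1, where its level in the control line was 4.10-fold that of HepG2 NC TuD. FBXO31, the substrate receptor of an SCF ubiquitin ligase, rose by 0.19 ± 0.04 in HepG2, with 7.8% of its exon bases shared with neighbouring genes. The other 4 were not called in HepG2, with 0.10 for CCNG2, an unconventional cyclin of non-dividing cells, 0.05 for the deubiquitinase USP32, 0.02 for the ubiquitin ligase ITCH and −0.05 for WEE1, the kinase that holds back entry into mitosis. USP32 shares sequence with its copy USP6, so its counts are uncertain.

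The transcription and chromatin group had 2 of 5 genes higher in HepG2, with a median of 0.15, and none in SK-Hep1, with a median of 0.04. ZBTB4, a zinc finger repressor that binds methylated DNA, had 35.3, 35.2 and 36.2 CPM in HepG2 miR-17 TuD, against 25.2, 25.6 and 30.5 CPM in HepG2 NC TuD. In SK-Hep1 it had 81.5 and 88.6 CPM with the miR-17 decoy, against 77.0 and 79.5 CPM with the control decoy. No library of one arm fell within the other arm in either line, and ZBTB4 rose by 0.39 ± 0.07 in HepG2 (adjusted p = 2.81e-05), while its 0.12 ± 0.07 in SK-Hep1 did not pass (adjusted p = 0.645; edgeR). NPAT, a coactivator of histone genes, rose by 0.30 ± 0.07 in HepG2. SOX4, a developmental transcription factor, had 0.15 ± 0.07 (adjusted p = 0.1254; edgeR), with HepG2 arms that did not overlap. ARID4B, a subunit of the SIN3 repressor complex, had 0.11 ± 0.06, and RUNX1, a transcription factor best known from blood formation, 0.02 ± 0.07. ARID4B shares 15.7% of its exon bases with GGPS1 and RBM34, so its level is uncertain.

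At the cell surface and among ligands 3 of the 5 tested genes were higher in HepG2, with a median of 0.12 that counts EPHA4, which has no HepG2 counts, as 0. Over the 4 genes with HepG2 counts the median was 0.23. In SK-Hep1 none of the 5 passed, with a median of 0.24. MICA, the stress-induced ligand of the NKG2D receptor of natural killer cells, had 33.7, 32.3 and 34.0 CPM in HepG2 miR-17 TuD, against 28.7, 25.8 and 24.6 CPM in HepG2 NC TuD. In SK-Hep1 it had 49.3 and 52.5 CPM with the miR-17 decoy, against 43.1 and 43.3 CPM with the control decoy. Arms were separate in both lines, with a rise of 0.34 ± 0.07 in HepG2 (adjusted p = 0.00028) and a value of 0.24 ± 0.08 in SK-Hep1 that did not pass (adjusted p = 0.154; edgeR); reads shared with its close relative MICB leave its counts uncertain. EREG, a growth factor that binds the EGF receptor, rose by 0.45 ± 0.11 in HepG2, and CRIM1, a membrane protein that binds BMPs, by 0.12 ± 0.04. The call of CRIM1 was lost with the replicate block (adjusted p = 0.0641), without HepG2 miR-17 TuD replicate 3 (0.0536) and without HepG2 NC TuD replicate 1 (0.150). APP, the amyloid precursor protein, had 275 ± 3.13 CPM in HepG2 miR-17 TuD, against 274 ± 3.74 CPM in HepG2 NC TuD (SD, n = 3 each). EPHA4 had 19.3 and 18.3 CPM in SK-Hep1 miR-17 TuD, against 15.2 and 12.1 CPM in SK-Hep1 NC TuD, and its 0.46 ± 0.12 lay just outside the threshold (adjusted p = 0.0506; edgeR). With DESeq2's size factors EPHA4 passed (adjusted p = 0.0391), and with upper quartile scaling and with no filter on low counts it passed too (0.0410 and 0.0232; edgeR), as it did with SK-Hep1 fitted alone (0.0159) and without SK-Hep1 NC TuD replicate 1 (0.0278). EPHA4 missed by more with the DESeq2 Wald test (adjusted p = 0.574), limma on the deposited matrix (0.832), the replicate block (0.139) and without any 1 of the other 3 SK-Hep1 libraries (0.187 to 0.709).

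Transport and metabolism had 4 of 5 genes higher in HepG2, with a median of 0.21, and none in SK-Hep1, with a median of 0.03. NAGK, the kinase that salvages N-acetylglucosamine, had 31.9, 37.1 and 33.5 CPM in HepG2 miR-17 TuD, against 22.2, 24.6 and 24.1 CPM in HepG2 NC TuD. SK-Hep1 had 50.0 and 51.0 CPM with the miR-17 decoy, against 42.7 and 45.6 CPM with the control decoy. Neither line's arms overlapped, and NAGK rose by 0.54 ± 0.07 in HepG2 (adjusted p = 7.6e-08) and had 0.19 ± 0.08 in SK-Hep1 (adjusted p = 0.377; edgeR). ABCA1, the pump that loads cholesterol onto lipoprotein particles, rose by 0.21 ± 0.05 in HepG2, and TXNIP, which binds thioredoxin and limits glucose uptake, by 0.21 ± 0.05. With limma on the deposited matrix ABCA1 did not pass (adjusted p = 0.114). KPNA2, an importin that carries proteins into the nucleus, rose by 0.14 ± 0.04, and its processed pseudogenes leave its counts uncertain. ANKH, an exporter of pyrophosphate and citrate, had 0.14 ± 0.06 (adjusted p = 0.0791; edgeR) with separate HepG2 arms, and −0.04 ± 0.08 in SK-Hep1.

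Genes with an 8mer had the larger median response in both lines. Of the 20 tested genes with an 8mer, 16 were higher in HepG2 and 4 in SK-Hep1, with median log2 fold changes of 0.26 (0.29 without EPHA4, which has no HepG2 counts) and 0.15. Of all 705 tested genes with an 8mer 24.7% were higher in HepG2 and 5.82% in SK-Hep1, with medians of 0.06 and 0.03. Among the 17 genes with 7mer-m8 sites only, 8 were higher in HepG2 and none in SK-Hep1, with medians of 0.12 and 0.05. All 2608 tested genes of that kind had 12.5% higher in HepG2 and 0.575% in SK-Hep1, with medians of 0.01 and −0.00. Every gene called in SK-Hep1 held an 8mer. For both kinds of site the median of the listed genes lay above that of all genes with such a site, and the difference between the kinds was not tested.

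**Figure D3:**
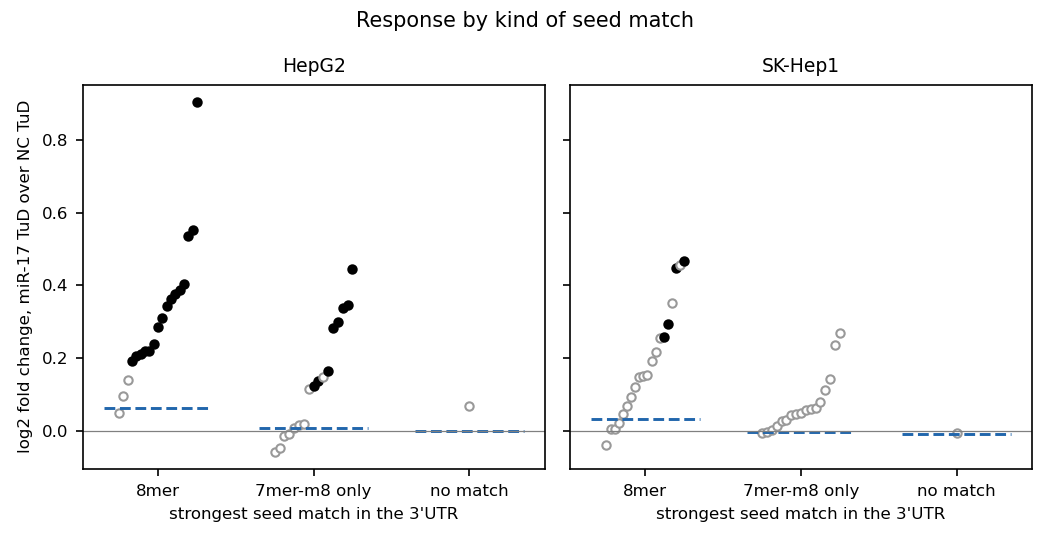
Log2 fold change, miR-17 TuD over NC TuD, of the tested genes by the strongest seed match in their 3′UTR, in HepG2 (left) and SK-Hep1 (right). Filled points have an adjusted p below 0.05, points are ordered by value within a class, and dashed lines are medians over all tested genes of the class. Genes with an 8mer reach from 0.05 to 0.90 in HepG2, and the filled points in SK-Hep1 are all in the 8mer class.

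The last comparison set the control lines against each other, since the level of a target differed widely between them. SK-Hep1 NC TuD differed from HepG2 NC TuD in 35 of the 38 genes, 20 higher and 15 lower in SK-Hep1, close to the background of 86.7% of all genes (43.9% higher, 42.8% lower). The 20 include EPHA4, which passed the filter through SK-Hep1 only, so its direction was fixed by that filter. LIMA1 was 14.6-fold higher in SK-Hep1 NC TuD, at 584 ± 19.3 CPM (SD, n = 2), against 39.9 ± 1.28 CPM in HepG2 NC TuD (SD, n = 3). APP and CYLD were higher as well, by 2.11 and 2.04 on the log2 scale. FGD4, ABCA1, FBXO31 and EREG were lower in SK-Hep1 NC TuD, with log2 fold changes of −3.13, −3.12, −2.59 and −2.36. EPHA4, absent from the HepG2 counts, was at least 60.8-fold higher in SK-Hep1 NC TuD, at 13.7 CPM, against the 0.225 CPM that 3 counts per library would give in HepG2 NC TuD. Per kilobase of exon the most abundant genes in HepG2 NC TuD were LAPTM4A, at 155 CPM per kilobase, KPNA2, at 139.6, and APP, at 43.3. The same 3 genes led SK-Hep1 NC TuD, where KPNA2 had 242, APP 188 and LAPTM4A 108 CPM per kilobase, followed by LIMA1 at 92.4.

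**Figure D4:**
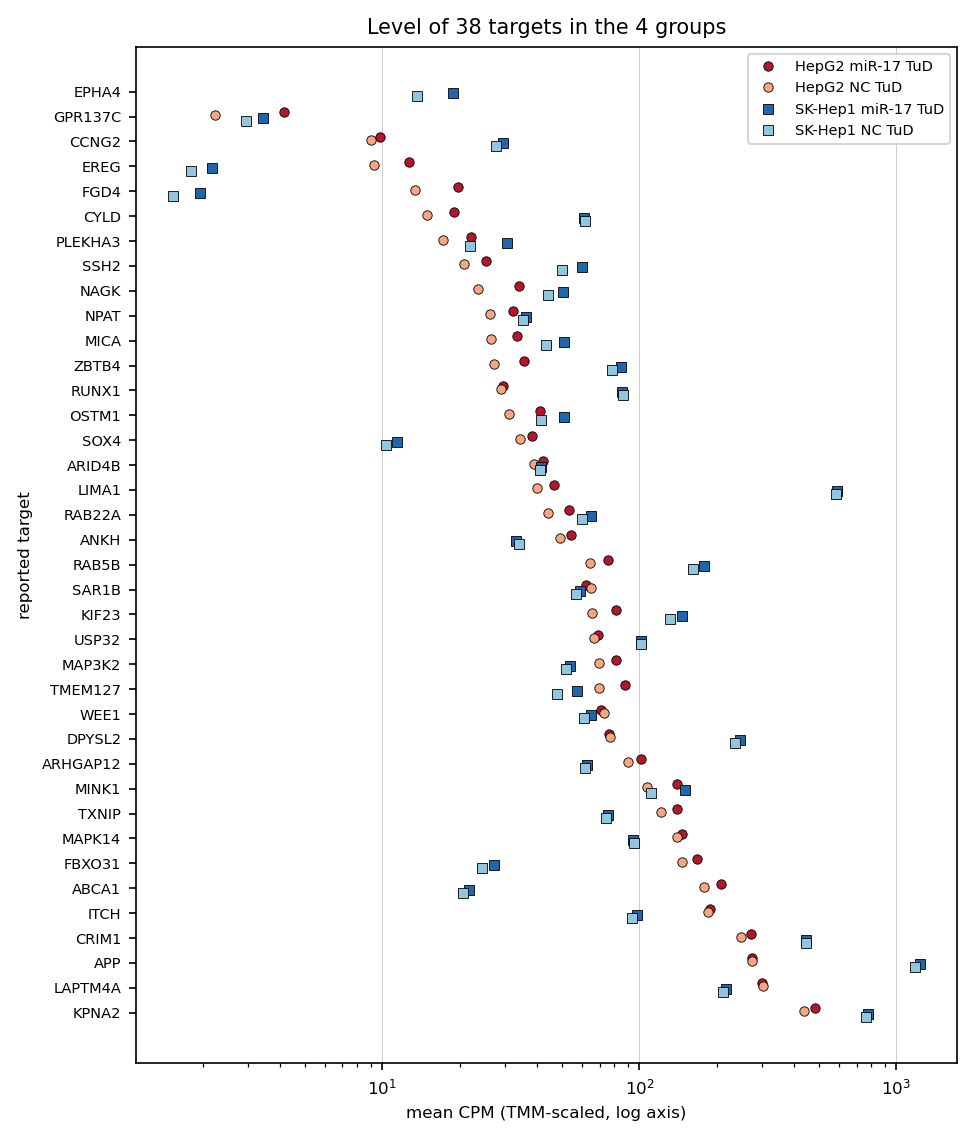
Mean level in CPM (log axis) of 38 genes in the 4 groups, ordered by HepG2 NC TuD, with circles for HepG2 and squares for SK-Hep1. Darker symbols are miR-17 TuD and lighter ones NC TuD, EPHA4 has no HepG2 symbol because it had no count there, and ENPP5 is not drawn. The lines lie 14.6-fold apart in LIMA1, while decoy and control in HepG2 lie at most 1.87-fold apart in any gene.

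A second list of 36 other reported targets of the family gives the surroundings of these results. In HepG2, 21 of the 36 were higher with the decoy, 1 was lower and 14 were not called, with a median of 0.19, and in SK-Hep1 8 were higher and 0 lower, with a median of 0.14 (edgeR; the backgrounds are those given above). ZNFX1, a helicase of antiviral defence, rose by 0.85 ± 0.05 in HepG2 and by 0.49 ± 0.05 in SK-Hep1. TGFBR2, a TGF-beta receptor, rose by 0.44 ± 0.04 in HepG2 and by 0.61 ± 0.05 in SK-Hep1. In HepG2, FYCO1, an adaptor that moves autophagosomes, rose by 0.76 ± 0.07 and CDKN1A, the p21 inhibitor of cyclin-dependent kinases, by 0.40 ± 0.04. Their SK-Hep1 values, 0.23 ± 0.07 and 0.16 ± 0.04, did not pass (adjusted p = 0.0865 and 0.0516 by edgeR). RGMB, a coreceptor for BMPs, rose by 0.40 ± 0.05 in SK-Hep1 and by 0.63 ± 0.08 in HepG2. ATG16L1, of autophagosome formation, rose by 0.39 ± 0.08 in SK-Hep1 and by 0.24 ± 0.05 in HepG2. The gene that fell in HepG2 was KLF9, a Krüppel-like transcription factor, at −0.41 ± 0.11; it is named outside the rule because it was the only one. These genes too were listed with earlier results of these data known, so their direction is not independent of them.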

How the data were processed

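The authors deposited 1 table of raw gene counts per library and 1 table of log2 values for the 10 libraries together. Libraries were made from 150 ng of total RNA with a TruSeq RNA kit and read as 50 bp pairs, per the labels; that kit selects poly(A) RNA and keeps no strand information. The aligner was STAR, the build hg19 and the counter HTSeq 0.5.4p5, per the submitters' processing notes, while the series description names Bowtie, TopHat, a mouse genome and RSEM; the symbols are human and the 5 summary entries are of the HTSeq kind. Those entries were left out (no feature 11.6% to 14.1%, ambiguous 0.584% to 0.619%, not unique 4.47% to 5.04%, not aligned 2.43% to 2.87% of each column, low quality 0). The deposited log2 values matched log2 of the counts plus a small offset, over a library size, for 13616 of 13658 genes and served in 1 alternative only.

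Counts were tested with edgeR 4.0.16 (R 4.3.3): filterByExpr by group, TMM, and 1 robust quasi-likelihood fit of 4 group means over all 10 libraries, two-sided, with Benjamini-Hochberg adjustment over 13349 genes at 0.05. CPM uses TMM factors, and log2 fold changes are given ± SE. That SE was derived from the test, as the absolute log2 fold change over the square root of the quasi-likelihood F statistic. DESeq2 1.42.0 and limma 3.58.1 were alternatives, beside other scalings, no filter, each line alone, the replicate number as a block and leaving out each library. Replicate pairs differed beyond counting error (chi-square over its degrees of freedom 1.39 to 3.59). At this depth 1 count is 0.0663 to 0.0776 CPM; floors cover counting error only.

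Sites are on GRCh38 (GENCODE 29), while counts were made on hg19; 18191 symbols matched directly, 729 through synonyms and 295 not. The longest 3′UTR may not be the one these cells use. The genes, lists and role groups were chosen with earlier results of these data known, so no test was run over a list. Values in every library are given for genes called in SK-Hep1 and the 10 with the smallest adjusted p in HepG2; others are given by role, and genes outside the list only from the second target list (4 per line) and the markers.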

Additional observations from a re-analysis of the deposited data

How the results depend on the processing

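In HepG2 the number of called genes stayed between 21 and 24 under every alternative, and 19 of the 24 were called in all of them. limma on the deposited matrix lost MAP3K2, ARHGAP12 and ABCA1, and leaving out 1 library gave 21 to 24 and cost ARHGAP12, LIMA1, MAP3K2 or CRIM1. In SK-Hep1 the count of 4 became 9 with each line fitted alone (adding KIF23, RAB5B, SSH2, EPHA4 and MICA), 1 to 3 without 1 library, and 2 with the replicate block, where OSTM1 and TMEM127 were lost; only MINK1 was called throughout. The median in SK-Hep1 was 0.0889 with DESeq2's size factors and 0.0888 with DESeq2, and 0.0689 to 0.0966 without 1 library; in HepG2 that range was 0.184 to 0.235. The count of genes whose response differed between the lines became 1 (NAGK) with no filter on low counts and 0 to 1 without 1 library, and the count between the control lines was 34 to 35. The cause of these shifts was not tested. In HepG2, same-numbered libraries of the 2 arms did not deviate together (correlations of deviations 0.020, −0.215 and −0.17). Between differently numbered HepG2 libraries the correlations ran from −0.0775 to 0.23. In SK-Hep1 both same-numbered pairs gave −0.0544, a value fixed to be equal by having 2 libraries per arm, so it cannot decide on pairing. With the replicate block HepG2 had 22 calls, without ARHGAP12 and CRIM1, and the difference 0.

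Some uncalled values near 0 changed sign. With DESeq2's size factors, SK-Hep1 values were 0.0122 (RUNX1), 0.0102 (CYLD) and 0.0098 (MAPK14), with upper quartile scaling 0.0062, 0.0043 and 0.0038, with DESeq2 0.0120, 0.0098 and 0.0098, and with each line alone 0.0052, 0.0033 and 0.0020. RUNX1 was 0.00031 with limma and CRIM1 −0.000087 with no filter; LAPTM4A in HepG2 was 0.00024 with DESeq2's size factors and 0.00027 with DESeq2. Without 1 library the HepG2 ranges were LAPTM4A −0.034 to 0.0093, RUNX1 −0.027 to 0.048, ITCH −0.049 to 0.062, USP32 −0.0073 to 0.090, CCNG2 −0.073 to 0.19, APP −0.0029 to 0.014 and SAR1B −0.11 to 0.016. In SK-Hep1 they were RUNX1 −0.049 to 0.044, CYLD −0.044 to 0.034, CRIM1 −0.0093 to 0.013, ARID4B −0.032 to 0.055, USP32 −0.0066 to 0.017, CCNG2 −0.042 to 0.24, MAP3K2 −0.021 to 0.11, MAPK14 −0.034 to 0.023, ARHGAP12 −0.053 to 0.11, LIMA1 −0.029 to 0.041, ABCA1 −0.089 to 0.24 and TXNIP −0.0091 to 0.049. At this depth genes near 2 CPM, such as FGD4 and EREG in SK-Hep1, had standard errors of 0.28 to 0.29, against changes of 0.55 and 0.45 in HepG2.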
